A study of Arabidopsis thaliana with 2 samples.

Results

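The genes described here are 6 stress-responsive transcription factors of Arabidopsis thaliana, 2 of the ZAT type of zinc finger protein and 4 of the WRKY family. They were chosen by name, as 1 probe set each of the 22746 plant probe sets on the array. They are ZAT12 (AT5G59820, probe set 247655_at), ZAT10 (AT1G27730, 261648_at), WRKY40 (AT1G80840, 261892_at), WRKY33 (AT2G38470, 267028_at), WRKY53 (AT4G23810, 254231_at) and WRKY70 (AT3G56400, 251705_at). The platform's gene annotation used here lists 2 of these probe sets, those of ZAT10 and WRKY53, with the same locus. The pairing of the other 4 probe sets with their genes was given with the choice of genes and could not be checked against that annotation.

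Whole Col-0 seedlings, 7 days old, formed both groups: 1 sample given 200 µM of the toxic heavy metal cadmium and 1 untreated control. The exposure is 6 hours in the series description and the treatment protocol, which is attached to both samples, and 4 hours in the labels of the cadmium sample itself. Both samples were grown on diluted MS medium at 28 °C with 16 hours of light and 8 hours of dark. No transgene, mutant or sorted tissue was involved, and the labels do not say how many seedlings were pooled in a sample.

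Each sample was hybridized to 1 Affymetrix ATH1 array, and the values are log2 probe set signals. All values are thus single measurements. No difference could be compared with a spread between replicates and none has a p-value. The words higher and lower describe these 2 arrays only. A whole-seedling signal cannot tell more transcript per cell from more cells that hold the transcript. The check of tissue identity was limited, as none of the 2 shoot markers and only 1 of the 6 root markers on the fixed lists had an annotated probe set. That marker was EXPA7, an expansin of root hair cells. It had 6.08 on the cadmium array, against 6.74 on the control array (difference -0.67), and its part in the results below was not tested.

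ZAT12 and ZAT10 are small nuclear proteins with C2H2 zinc fingers that bind DNA and an EAR motif, through which such proteins repress transcription. Their transcripts are known to accumulate within a short time of oxidative stress, strong light, cold, salt or wounding. WRKY proteins are a plant family named after a conserved stretch of their DNA-binding domain, and they bind W-box elements in promoters, including those of other WRKY genes. Many WRKY genes are induced by microbial signals, reactive oxygen species or salicylic acid, and mitogen-activated protein kinases act upstream of several of them.

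Of the 6 genes, 5 had a higher signal on the cadmium array than on the control array and 1 a lower one, where 54.7% of all plant probe sets were higher. Both ZAT genes were at least 2-fold higher. None of the 4 WRKY genes reached 2-fold in either direction, and 3 of them were higher by a smaller amount. Over all plant probe sets, 0.422% (96) were at least 2-fold higher with cadmium and 0.624% (142) at least 2-fold lower. The median difference of the 6 genes was 0.61 on the log2 scale, beside 0.02 over all plant probe sets. The genes were chosen as known stress-responsive genes and with earlier results of these data known, so these counts describe them and do not stand as a test.

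**Figure D1:**
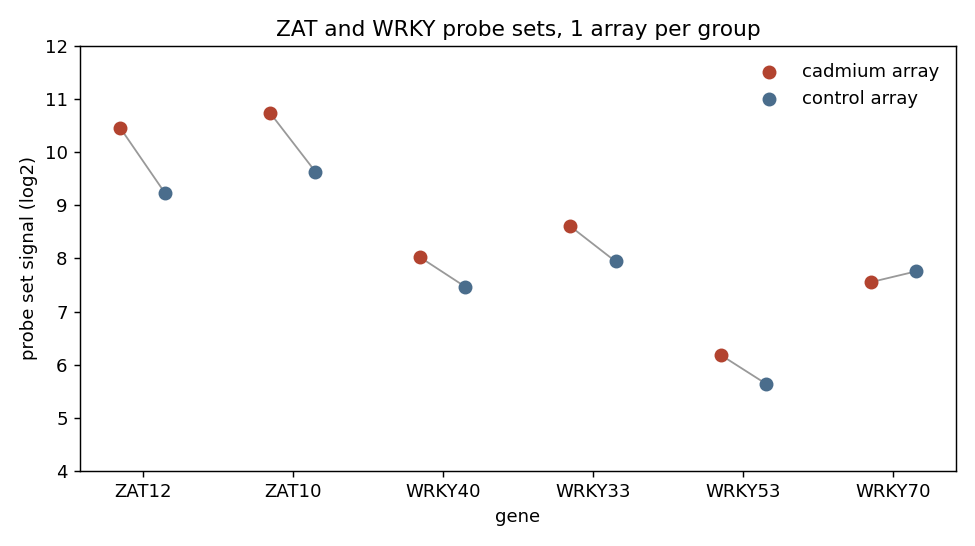
Signal of the 6 ZAT and WRKY probe sets (vertical axis, log2) on the cadmium array (left point of each pair) and the control array (right point), 1 array per group, with a line joining the 2 values of a gene. ZAT12 and ZAT10 are at 10.46 and 10.74 on the cadmium array, against 9.23 and 9.64 on the control array, and only WRKY70 is lower on the cadmium array; heights of different genes are not comparable, since each probe set has its own sensitivity.

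ZAT12, also called RHL41 for its response to high light, is known for its part in the response to reactive oxygen species. Its probe set had a log2 signal of 10.46 on the cadmium array, against 9.23 on the control array. The difference was 1.24, or 2.36-fold higher with cadmium. It was the largest of the 6, and 52 plant probe sets, ZAT12 included, had a difference at least as large in that direction, 0.229% of the total. The signal was strong on both arrays, above that of 95.8% of plant probe sets on the cadmium array and 88.7% on the control array.

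ZAT10 is listed in the RefSeq gene table under its other name, STZ, for salt tolerance zinc finger. It is known as a repressor that is induced by salt, drought and cold. Its probe set had a log2 signal of 10.74 on the cadmium array, against 9.64 on the control array. This was a difference of 1.10, or 2.15-fold higher with cadmium, and 78 plant probe sets including ZAT10 differed at least as much in that direction. Its signal was above that of 96.7% of plant probe sets on the cadmium array and 91.6% on the control array. ZAT12 and ZAT10 thus lay close together, with differences that were 0.14 apart on the log2 scale. Both were in the highest of 4 groups of equal size by mean signal, in which 0.774% of probe sets were at least 2-fold higher.

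WRKY33 had the largest difference of the 4 WRKY genes. The protein is a substrate of stress-activated kinases and activates genes for the synthesis of camalexin, the main antimicrobial compound of Arabidopsis leaves. Its probe set had a log2 signal of 8.60 on the cadmium array, against 7.94 on the control array. The difference was 0.66, or 1.58-fold higher with cadmium, and 252 plant probe sets, 1.11% of the total, were at least as far in that direction. In the deposited values it was the only one of the 4 WRKY genes at least 1.5-fold higher, a limit passed in that direction by 1.46% of all plant probe sets and by 2.62% of those in the highest signal group, to which WRKY33 belonged.

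WRKY40 is known mainly as a repressor of defence and abscisic acid responses that acts with close relatives in the family. It had a log2 signal of 8.02 on the cadmium array, against 7.47 on the control array. That was a difference of 0.55, or 1.47-fold higher with cadmium, just short of the 1.5-fold limit. This call turned with the scaling, as WRKY40 was above the limit at 0.61 after subtraction of a lowess curve, 0.62 after quantile normalization and 0.77 with scaling to the hybridization controls. A difference at least this large and in this direction was found for 386 plant probe sets, 1.70% of the total.

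WRKY53, a regulator of leaf senescence, had a log2 signal of 6.18 on the cadmium array, against 5.64 on the control array. Its difference of 0.54, or 1.45-fold higher with cadmium, was 0.013 below that of WRKY40, and 414 plant probe sets were at least as far in that direction. The size was uncertain at this weak signal, falling to 0.35 with 32 added to each linear value. With scaling to the hybridization controls, which moves every gene by the same amount, the difference reached 0.76, beyond 1.5-fold. WRKY53 had the weakest signal of the 6. It was above 49.4% of plant probe sets on the cadmium array and 41.6% on the control array. Its lower value was 0.66 above the highest of the 27 Bacillus and trpn probe sets, whose highest value was 4.98 on the cadmium array and 4.95 on the control array. The lower values of the other 5 genes were between 2.48 and 4.65 above it. The files hold no detection calls. In the signal group of WRKY53, the second from the bottom, 1.07% of probe sets were at least 1.5-fold higher.

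WRKY70 was the only one of the 6 with a lower signal in the cadmium sample. It is known as an activator of genes that respond to salicylic acid and as a point where the salicylic acid and jasmonate pathways meet. Its log2 signal was 7.55 on the cadmium array, against 7.76 on the control array. The difference was -0.20, or 1.15-fold lower with cadmium, and 3463 plant probe sets, 15.2% of the total, were at least as far in that direction. A difference of this size was thus common on these arrays, and its sign depended on the scaling, as given below. The differences of the other 3 WRKY genes were 0.74 to 0.86 above that of WRKY70 on the log2 scale, and that of ZAT12 was 1.44 above it.

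**Figure D2:**
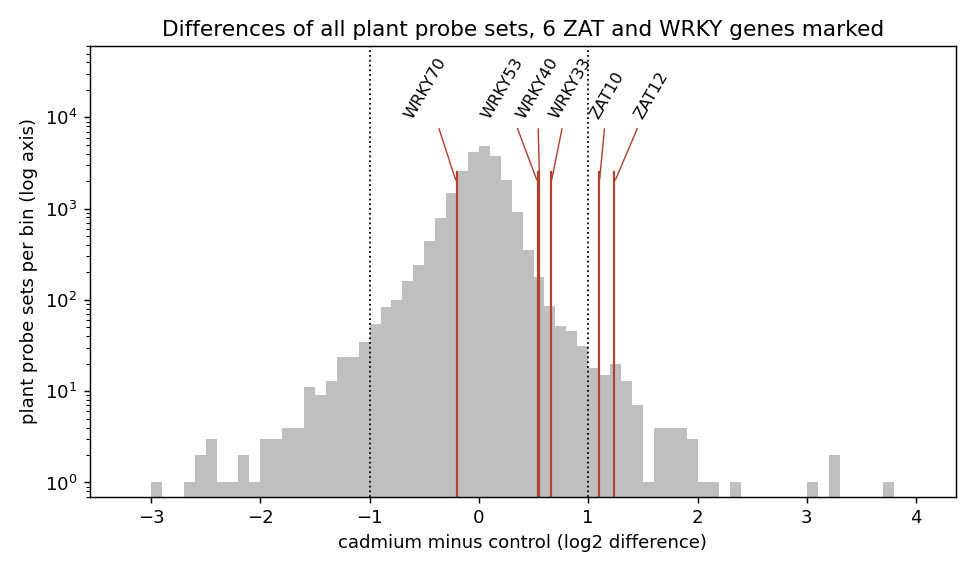
Histogram of the cadmium minus control log2 differences of the 22746 plant probe sets (horizontal axis, bins of width 0.1; the vertical axis is the number of probe sets on a log scale), with a red line at each of the 6 genes and dotted lines at 2-fold. ZAT10 and ZAT12 lie beyond the upper 2-fold line, WRKY53, WRKY40 and WRKY33 lie between 0.54 and 0.66 where the histogram thins out, and WRKY70 at -0.20 lies within its broad centre.

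The position of zero between the 2 arrays bears on the smaller differences. In all 18 probe sets for the hybridization controls, which are foreign transcripts added before hybridization, the cadmium array gave the lower signal, with a mean difference of -0.22 over the 4 transcripts. These transcripts were not alike, at -0.27 for bioB, -0.28 for bioC, -0.25 for bioD and -0.073 for cre. Scaling to these controls would subtract the mean of -0.22 from every difference and so raise each by the same amount. WRKY70 would then stand at 0.015 in place of -0.20, but scaled to cre alone, an alternative chosen after seeing the data, it stayed lower at -0.13. With the mean of all 4 controls ZAT12 stood at 1.45, ZAT10 at 1.32, WRKY33 at 0.88, WRKY40 at 0.77 and WRKY53 at 0.76. The median of all plant probe sets was then 0.24. Across 6 settings, the deposited values and the median, lowess, quantile, control-mean and pseudocount settings, both ZAT genes stayed above 2-fold and no WRKY gene of the 4 reached it. The order of the 6 differences, with ZAT12 first, then ZAT10, WRKY33, WRKY40, WRKY53 and WRKY70, was that of the deposited values under each of these settings. Subtracting 1 value from all differences cannot alter that order, so only the lowess, quantile and pseudocount alternatives could have done so. WRKY40 and WRKY53 were too close for their order to carry weight on single arrays.

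**Figure D3:**
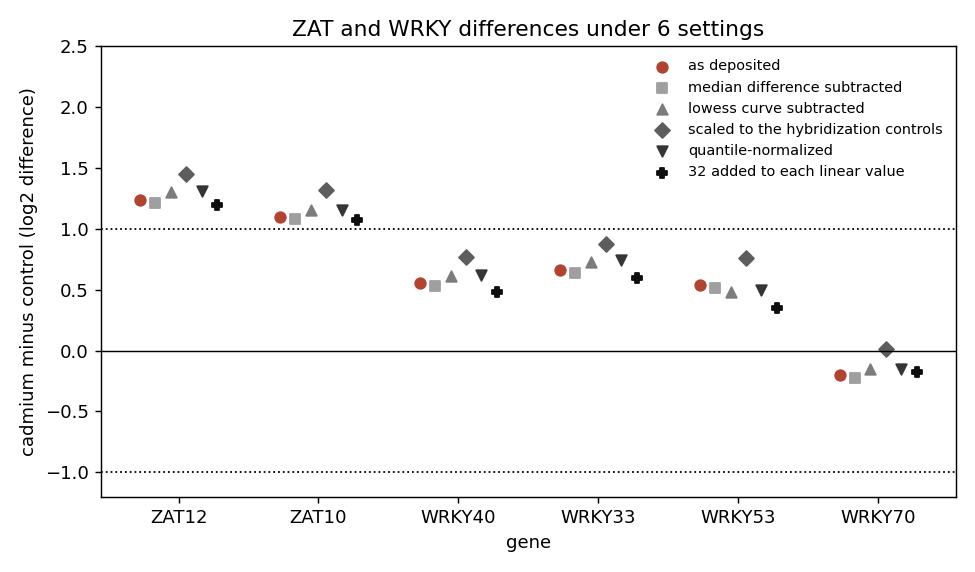
Cadmium minus control log2 difference (vertical axis) of each of the 6 genes as deposited (red circle) and under 5 alternatives (grey to black markers), with dotted lines at 2-fold. ZAT12 and ZAT10 stay above the upper line, between 1.07 and 1.45, and WRKY70 lies between -0.23 and 0.015.

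The other WRKY genes were examined as far as they could be identified. The RefSeq table names 71 WRKY genes by symbol or synonym, and a probe set could be named for 10 of them, the 4 described above and 6 more from the platform annotation. Those 6 were split evenly, with 3 higher and 3 lower on the cadmium array and a median difference of -0.018, beside 0.02 over all plant probe sets. With the 4 chosen genes included, 6 of the 10 were higher, close to the 54.7% of all plant probe sets. With scaling to the hybridization controls 8 were higher, but that scaling also moved the median of all plant probe sets to 0.24. The 54.7% therefore does not apply to those 8. None of the 10 reached 2-fold in the upward direction, and 1 did so downward. Over all plant probe sets the shares were 0.422% upward and 0.624% downward. With shares this small, none upward among 10 genes is not a result about this family.

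The 1 beyond 2-fold was WRKY22, known to act downstream of a kinase cascade that responds to bacterial flagellin. WRKY22 had a log2 signal of 6.46 on the cadmium array, against 7.74 on the control array (difference -1.28), or 2.43-fold lower with cadmium. It was lower under these 6 settings, from -1.31 to -1.04. Only 63 plant probe sets were at least as far in that direction. Among the 10 WRKY genes with a named probe set, WRKY22 had the lowest difference and WRKY33 the highest.

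WRKY6, a regulator of senescence and of phosphate transport, was close to WRKY33, with 9.68 on the cadmium array, against 9.05 on the control array (difference 0.63). WRKY42, which like WRKY6 is known from phosphate nutrition, had 5.31 on the cadmium array, against 4.84 on the control array (difference 0.48). The control value of WRKY42 was below the highest Bacillus control value there, so the size of its difference is uncertain. WRKY47 had 7.78 on the cadmium array, against 8.24 on the control array (difference -0.46). WRKY1 and WRKY20 differed by 0.09 and -0.13, and that of WRKY20 turned to 0.09 when the hybridization controls set the scale.

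Of 11 ZAT and AZF genes, which share the zinc finger type of ZAT10 and ZAT12, a probe set could be named for 4, and the other 7 were not analysed here. Besides ZAT12 and ZAT10 these were 2 loci that the RefSeq table lists without a symbol. AT2G28200 had a log2 signal of 7.87 on the cadmium array, against 8.89 on the control array (difference -1.02), or 2.03-fold lower with cadmium. AT2G28200 kept this direction under these 6 settings, but stayed beyond 2-fold only as deposited and after subtraction of the median difference. AT3G53600 had 4.16 on the cadmium array, against 3.97 on the control array, within the range of the Bacillus controls.

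**Figure D4:**
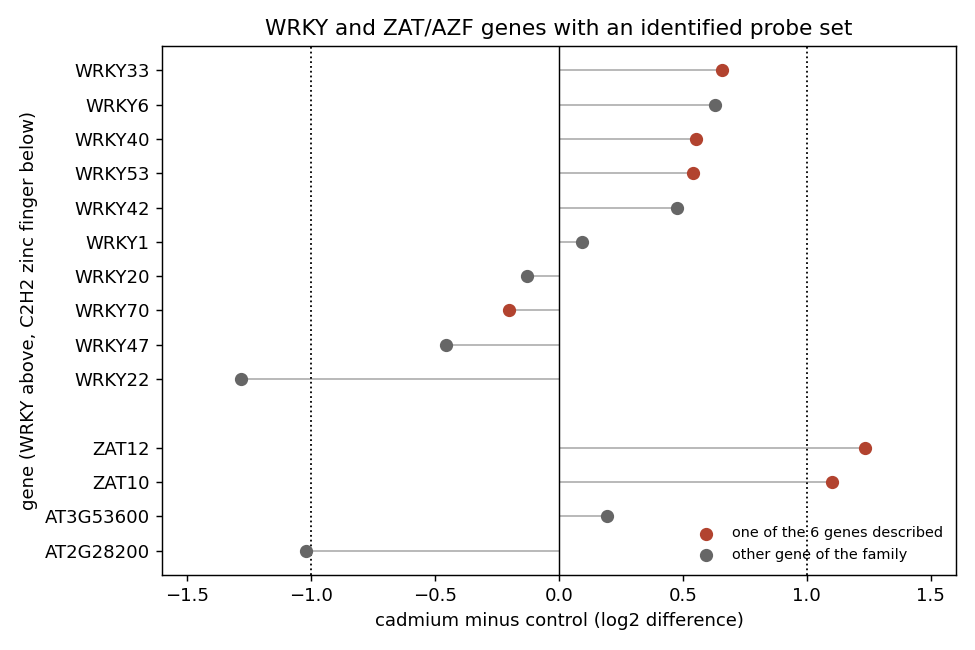
Cadmium minus control log2 differences (horizontal axis) of the 10 WRKY genes (upper block) and 4 C2H2 zinc finger genes (lower block) with an identified probe set, the 6 genes described in red and the others in grey, with dotted lines at 2-fold. WRKY22 at -1.28 and AT2G28200 at -1.02 lie on the opposite side from ZAT12 at 1.24 and ZAT10 at 1.10.

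Genes known to act around these factors could hardly be examined. Of 10 fixed lists, the marker lists included, 5 had no gene whose probe set could be named, among them those of kinases upstream of WRKY33, of camalexin and ethylene synthesis and of reactive oxygen metabolism. The salicylic acid list had 1 of 13 genes, SAG101, a partner of defence regulators, with 5.53 on the cadmium array, against 5.63 on the control array. Its difference was -0.10, or 0.12 when the hybridization controls set the scale. The list of touch genes, calcium and cell wall genes that also respond to handling, had 2 of 5 genes. CML38, a calmodulin-like protein, had 6.64 on the cadmium array, against 6.07 on the control array (difference 0.58). CML37, its close relative, had 4.41 on the cadmium array, against 3.99 on the control array (difference 0.43), at a signal within the range of the Bacillus controls. Neither reached 2-fold, beside 0.422% of all plant probe sets at least 2-fold higher. With a share this small, none among 2 genes is not a result about this list. The difference of CML38 lay between those of WRKY40 at 0.55 and WRKY33 at 0.66. That of CML37 was 0.16 with 32 added to each linear value. Whether handling had a part in the differences of the ZAT and WRKY genes was not tested.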

How the data were processed

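The deposited table holds 1 log2 signal per probe set for each of the 2 arrays. Per the submitters' processing notes, the authors used RMA and the R package affy. Their versions and settings were not given in the sources used here. In its usual form RMA makes arrays alike in distribution, which hides a change common to most transcripts.

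Here the cadmium value minus the control value was computed, without further scaling, filter or pseudocount, and counted at 2-fold. Control probe sets were left out of all counts. With 1 array per group no test was possible, and the number of arrays limits the precision. Of 14016 probe sets in the platform annotation, 503 have several genes and were not named, and 13436 of the rest were matched to the RefSeq table by gene ID. Of the plant probe sets, 8730 are not in that annotation. No sequences or coordinates were used here.

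The genes and lists were chosen with earlier results of these data known. All 6 genes are named, and from each list the genes beyond 2-fold, otherwise the 3 largest differences; the remaining WRKY genes with a named probe set and AT3G53600 were added after their values were seen. Alternatives were the median, lowess (fraction 0.3), hybridization control and quantile scalings, 32 added to linear values, other limits and 2 filters; scaling to cre alone was added after seeing the data. The counting was also run on simulated data with added 3-fold changes. That checks the code only and not the counts of the deposited values. Python 3.11.15, numpy 2.4.6, pandas 2.3.3, statsmodels 0.14.6 and matplotlib 3.10.9 were used.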

Additional observations from a re-analysis of the deposited data

How the results depend on the processing

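Of the 30 values of the 6 genes under the 5 alternative settings, 29 kept their direction and their side of the 2-fold limit. The exception was WRKY70, at 0.015 with scaling to the hybridization controls. The 1.5-fold limit was less stable. With the deposited values counted as 1 of 6 settings, WRKY40 passed it in 3, lowess, quantile and hybridization controls, but not as deposited. WRKY53 passed it in 1 of 6, the hybridization controls. Scaled to cre alone, chosen after seeing the data, the 6 genes kept their direction and side of 2-fold. Subtracting a constant or a small curve is a weak check of ZAT12 and ZAT10, whose ranges were 1.19 to 1.45 and 1.07 to 1.32. At a 3-fold limit 0 of the 6 genes were higher. The counts of all plant probe sets, 96 higher and 142 lower, were 181 and 80 with scaling to the hybridization controls, 63 and 91 with 32 added, 332 and 566 at 1.5-fold and 23 and 28 at 3-fold. These moves follow from the construction of the alternatives, which add a constant to each difference, shrink it or move the limit, and the same holds for WRKY70. Of the 10 WRKY genes with a named probe set, 2 were above 1.5-fold, the chosen WRKY33 and WRKY6, beside 1.46% of all plant probe sets. At 3-fold 0 of the 10 were lower, beside 0.123% of all plant probe sets. Of the 4 ZAT and AZF genes with a named probe set, 0 were 3-fold higher, beside 0.101% of all plant probe sets. The count of lower genes was 0 rather than 1 at 3-fold. It was also 0 at 2-fold after the lowess or quantile alternative, with the hybridization controls or with 32 added. At 1.5-fold, EXPA7, the only root marker with an annotated probe set, was lower, as were 2.49% (566) of all plant probe sets. The search for promoter motifs was not run, as no promoter sequences were used here. No paired analysis was possible because each group has 1 array, and no array could be left out.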
